A study of Mus musculus with 3 samples.

Results

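Genes of 10 transcription factors of the naive pluripotency network were followed in mouse embryonic stem cells in which protein synthesis had been blocked. They were Klf2, Klf4, Klf5, Esrrb, Tbx3, Tfcp2l1, Nr5a2, Zfp42, Prdm14 and Nr0b1, chosen as listed symbols and making up 10 of the 32285 genes in the deposited matrices. Each symbol matched 1 identifier. The cells were E14, an embryonic stem cell line of 129/Ola background, kept in medium with serum and leukemia inhibitory factor (LIF). From 24 h after seeding, cells received 250 µg/mL cycloheximide, an inhibitor of translation elongation, for 3 h or for 6 h. The drug was in 0.007% ethanol, and control cells were given ethanol alone for 6 h, so the 3 h group had no control of equal duration. Cells of all groups were frozen and thawed before single-cell sequencing. Each group had 1 library, so no difference below was tested between conditions and none has a replicate check. Intervals are 95% exact intervals that cover counting error only. All groups are of 1 cell line, and how many dishes went into a library is not given in the sources used here.

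Naive pluripotency is the state of the inner cell mass before implantation, and embryonic stem cells approach it when LIF is present. LIF acts through STAT3, which drives Klf4 and Tfcp2l1, while other inputs reach Tbx3, Esrrb and Klf2, and the factors bind many of the same enhancers as Pou5f1, Sox2 and Nanog. Several members support self-renewal when overexpressed, and their transcripts are lost early when cells move to the formative state. In serum, expression of several of them is known to vary from cell to cell.

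Barcodes with at least 15000 unique molecular identifiers (UMIs, each standing for 1 captured RNA molecule) and 1 to 20% mitochondrial UMIs were kept. The control kept 2187 barcodes, the 3 h library 1739 and the 6 h library 2554. Their median UMI numbers were 43160, 51726 and 46200. Mitochondrial UMIs made up 4.57%, 3.51% and 2.94% of the kept UMIs in the same order, and the part of this in the results was not tested. The lower mitochondrial limit removed 62 control barcodes, 1 after 3 h and 8 after 6 h, and the upper limit removed 0 in each library. Kept barcodes of different libraries shared 1 to 3 barcode sequences per pair of libraries. All 6 stem cell markers (Pou5f1, Sox2, Nanog, Dppa5a, Tdgf1 and Utf1) were above 10 CPM (UMIs scaled to the same library total) in each library, with a summed level of 6548 to 7292 CPM. Markers of primitive endoderm summed to at most 12.5 CPM, of mesendoderm to 6.22 CPM, of fibroblasts to 2.48 CPM and of 2-cell-like cells to 0.592 CPM. Elf5, Col3a1 and Lum were at 0 in each library, and Cer1 was at 0 in the control and at 3 h. Neural markers summed to 83.6, 60.0 and 40.6 CPM, with Tubb3 the highest in each library, and trophoblast markers to 37.5 to 40.3 CPM. The part of these cell types in the results was not tested.

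Levels were read first as CPM summed over kept barcodes. The 10 members summed to 1516 CPM in the control, to 2046.5 after 3 h and to 1164 after 6 h. Behind this total lay 3 courses. Klf2 and Prdm14 were above the control at both times. Tfcp2l1 and Nr5a2 were below it at both times. The other members were above the control at 3 h and, apart from Nr0b1, below it at 6 h.

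**Figure D1:**
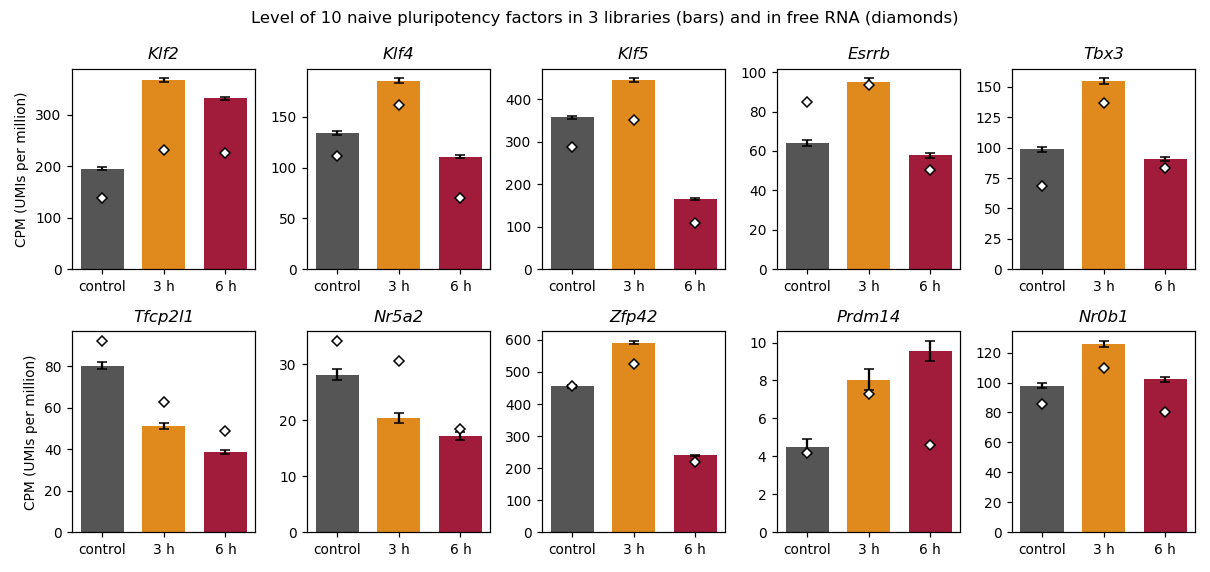
Level of each member in CPM (vertical axis, starting at 0, a separate scale per gene) in the control, 3 h and 6 h libraries. Bars are sums over kept barcodes with 95% exact Poisson intervals, and diamonds are the level in free RNA; Klf5 went from 358 to 446 to 165 CPM, and Klf2 from 196 to 368 to 332 CPM.

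A floor of 10 CPM, averaged over the libraries, was passed by 7608 genes, 9 members among them. Prdm14 did not pass. At 3 h, 2 of the 9 members (Klf2 and Tbx3) were at least 1.5-fold above the control, against 13.9% of all genes tested, and 1 (Tfcp2l1) was at least 1.5-fold below it, against 2.13%. At 6 h, 1 member (Klf2) was at least 1.5-fold higher than in the control, against 22.1% of genes, and 4 (Klf5, Tfcp2l1, Zfp42 and Nr5a2) were at least 1.5-fold lower, against 7.79%. Between 3 h and 6 h, 5 members (Klf5, Zfp42, Tbx3, Klf4 and Esrrb) were lower by at least 1.5-fold, against 2.52% of genes, and 0 were higher, against 1.74%. The median log2 ratio of the 9 members was 0.38 after 3 h against control, where that of all genes tested was 0.11. At 6 h against control it was -0.27, against 0.17 for all genes. At 6 h against 3 h it was -0.72, against 0.044 for all genes. All 9 ratios were below 0 there, as were those of 3221 of the 7608 genes. The 3 h and 6 h comparisons share the control library.

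Scaling moved these counts. With TMM factors, which set the median gene close to 0 (0.00023 after 3 h and 0.011 after 6 h), 1 member was at least 1.5-fold higher and 1 lower at 3 h, beside 771 higher and 283 lower of the 7608 genes. At 6 h the TMM counts were 1 member higher and 4 lower, beside 1187 and 913 genes. By mean UMIs per kept barcode, 7 members were at least 1.5-fold higher at 3 h and 0 were lower. The share of all genes past 1.5-fold by this scaling was not counted, so the 7 are not read as particular to the members. The lowest of these 7 ratios, that of Klf5, was above those of 70.3% of all genes. For several members, the ratio is therefore also given by its place among the ratios of all 7608 genes, which a common scaling does not change.

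**Figure D2:**
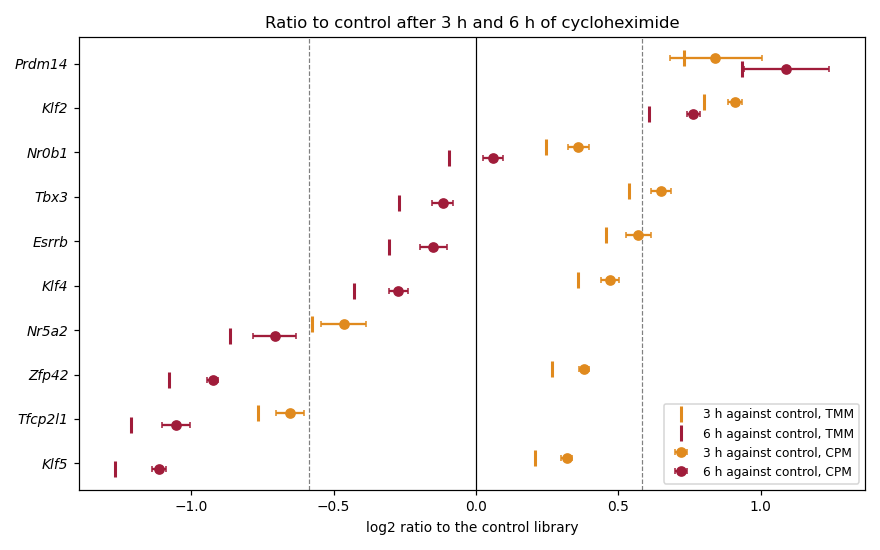
Log2 ratio to the control library (horizontal axis) for each member after 3 h and 6 h of cycloheximide. Points are CPM ratios with 95% exact conditional binomial intervals, short vertical marks the same ratio with TMM factors, and dashed lines a 1.5-fold difference; Klf2 and Prdm14 lie to the right at both times, Tfcp2l1 and Nr5a2 to the left, and Klf5 and Zfp42 are on opposite sides at the 2 times.

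The Krüppel-like factors Klf2, Klf4 and Klf5 share a C-terminal DNA-binding domain of zinc fingers that recognises GC-rich and CACCC sequences, and they can replace one another in part in stem cell self-renewal. Klf2 (ENSMUSG00000055148, GRCm38 chromosome 8, 72319033 to 72321656) stood at 196 CPM in the control (193 to 198), 368 after 3 h (364 to 371) and 332 after 6 h (329 to 335). Both treated libraries lay above the control. Their log2 ratios of 0.91 (0.89 to 0.93) and 0.76 (0.74 to 0.79) exceeded those of 94.5% and 85.0% of genes. Klf4 (ENSMUSG00000003032, chromosome 4, 55527143 to 55532466), one of the factors used to reprogram somatic cells, had 134 CPM (132 to 136), 186 CPM (183 to 188) and 111 CPM (109 to 113). It was highest at 3 h and lowest at 6 h, with log2 ratios to control of 0.47 and -0.27. Klf5 (ENSMUSG00000005148, chromosome 14, 99298691 to 99315036), needed in the early embryo and its stem cells, had 358 CPM (354 to 361), 446 CPM (442 to 450) and 165 CPM (163 to 167). Its log2 ratio was 0.32 after 3 h (0.30 to 0.34) and -1.11 after 6 h (-1.14 to -1.09). The 6 h level was 37.0% of the 3 h level, and only 0.237% of genes had a lower ratio between these libraries. As a share of the UMIs counted for these 3 genes, Klf2 made up 28.5% in the control, 36.8% after 3 h and 54.6% after 6 h.

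The orphan nuclear receptors come next. Esrrb (ENSMUSG00000021255, chromosome 12, 86361117 to 86521628), an estrogen-related receptor that can stand in for Nanog in self-renewal, stood at 64.0 CPM in the control (62.6 to 65.5), 95.1 after 3 h (93.2 to 96.9) and 57.7 after 6 h (56.5 to 59.0). The 3 h library was the highest, with a log2 ratio of 0.57, and the 6 h library was slightly below the control, with -0.15, or -0.041 by mean UMIs per kept barcode. Nr5a2 (ENSMUSG00000026398, chromosome 1, 136842571 to 136960448), which binds the Pou5f1 gene, had 28.1 CPM (27.1 to 29.1), 20.4 CPM (19.5 to 21.3) and 17.2 CPM (16.5 to 17.9). Its log2 ratios were -0.46 after 3 h and -0.71 after 6 h, lower than those of all but 3.81% and 5.28% of genes. Nr0b1 (ENSMUSG00000025056, chromosome X, 86191764 to 86195947), also called Dax1, lacks a classical DNA-binding domain and acts mostly as a corepressor. It had 98.0 CPM (96.1 to 99.8), 126 CPM (124 to 128) and 102 CPM (100.5 to 103.9), so the 3 h library was the highest. Its log2 ratio of 0.36 after 3 h was followed by 0.061 after 6 h (0.025 to 0.097), which became -0.095 with TMM factors and -0.10 with DESeq2 size factors.

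Tfcp2l1 (ENSMUSG00000026380, chromosome 1, 118627945 to 118685168), a grainyhead-like factor and STAT3 target, stood at 80.4 CPM in the control (78.7 to 82.1), 51.1 after 3 h (49.8 to 52.5) and 38.7 after 6 h (37.7 to 39.7). Each library was below the one before it in exposure time. The log2 ratios to control were -0.65 (-0.70 to -0.60) and -1.06 (-1.10 to -1.01), lower than those of all but 1.63% and 2.09% of genes. Tbx3 (ENSMUSG00000018604, chromosome 5, 119670669 to 119684724), a T-box factor, had 98.6 CPM (96.8 to 100.5), 155 CPM (152 to 157) and 91.0 CPM (89.4 to 92.6). Its log2 ratio was 0.65 after 3 h and -0.12 after 6 h, the latter close to the control and -0.0078 by mean UMIs per kept barcode.

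Zfp42 (ENSMUSG00000051176, chromosome 8, 43295063 to 43306980), known as Rex1, is a zinc finger protein derived from a copy of Yy1 and a common reporter of the naive state. It had 455 CPM in the control (451 to 459), 592 after 3 h (587 to 597) and 240 after 6 h (237 to 242). The 6 h level was the lowest, with a log2 ratio of -0.93 to control and -1.30 to 3 h. At 3 h it was above the control, with 0.38. Prdm14 (ENSMUSG00000042414, chromosome 1, 13113457 to 13127163), a PR-domain protein that represses FGF signalling and DNA methylation genes, was the member counted least. Its control level was 4.49 CPM from 500 UMIs (4.10 to 4.90), followed by 8.04 after 3 h (7.51 to 8.60) and 9.56 after 6 h (9.05 to 10.1). Its log2 ratios of 0.84 (0.68 to 1.00) and 1.09 (0.94 to 1.24) were above 0. It was the one member with a higher level at 6 h than at 3 h, by 0.25 (0.12 to 0.37). By mean UMIs per kept barcode that difference was only 0.088, and Prdm14 is below the floor.

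Sequences upstream of the start sites are shown for 1 member of each course, so that the 3 can be compared. They are the 250 bases before the RefSeq start site (RefSeq on GRCm38.p6), matched for 7 of the 10 members at 9 start sites. Klf5, Tbx3 and Prdm14 did not match. Capitals mark matches to the motifs searched on both strands, namely the octamer ATTTGCAT bound by Pou5f1, the orphan receptor half-site AAGGTCA, the KLF box GGGNGTGG, the GC box GGGCGGGG, the STAT site TTCNNNGAA and the TATA box TATAAA. Matches may overlap.
Klf2, higher at both times, chr8:72318812-72319061, plus strand: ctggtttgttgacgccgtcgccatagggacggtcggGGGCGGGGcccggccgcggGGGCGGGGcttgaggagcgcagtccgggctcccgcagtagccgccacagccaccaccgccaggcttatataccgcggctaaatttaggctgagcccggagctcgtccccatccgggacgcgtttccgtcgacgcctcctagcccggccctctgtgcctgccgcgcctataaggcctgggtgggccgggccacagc
Zfp42, above the control at 3 h and below it at 6 h, chr8:43307010-43307259, minus strand: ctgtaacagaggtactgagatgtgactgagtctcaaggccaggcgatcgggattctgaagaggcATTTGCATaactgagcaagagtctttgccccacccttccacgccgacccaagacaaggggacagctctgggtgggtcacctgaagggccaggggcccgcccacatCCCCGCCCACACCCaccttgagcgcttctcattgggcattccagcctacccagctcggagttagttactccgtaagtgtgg
Tfcp2l1, lower at both times, chr1:118627695-118627944, plus strand: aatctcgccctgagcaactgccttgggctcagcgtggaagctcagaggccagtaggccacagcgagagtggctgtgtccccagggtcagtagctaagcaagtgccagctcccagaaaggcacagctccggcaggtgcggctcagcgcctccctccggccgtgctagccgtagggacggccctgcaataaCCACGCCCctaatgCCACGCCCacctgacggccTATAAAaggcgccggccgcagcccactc

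The Klf2 window held 2 GC boxes and that of Klf4 held 4, where 16.1% of all 32851 windows held at least 1. In the Zfp42 window the octamer, present in 1.60% of windows, lay 186 to 179 bases before the start, and a GC box and a KLF box, both on the strand opposite to the gene, overlapped. Tfcp2l1 had 2 KLF boxes, a motif of 15.9% of windows, and a TATA box 28 to 23 bases before its start, a motif of 12.4% of windows. Nr0b1 had a TATA box 32 to 27 bases before its start. In 1 Nr5a2 window the TATA letters lay on the opposite strand, 181 to 176 bases before the start, and the other held a KLF box. Of the rest, 1 Esrrb window held a STAT site (7.02% of windows), and the half-site (4.08% of windows) was found in 0 of the 9. Klf2 and Klf4 had the highest GC content, 71.2% and 74.0%, against a median of 52.4% over all windows. A match is a string of letters and not a measured binding site.

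Next, each kept barcode was thinned at random to 15000 UMIs, so that barcodes could be compared at equal depth. The share of barcodes with at least 1 UMI kept the order of the summed levels, except that for Nr0b1 the control share was slightly above the 6 h share while its CPM was slightly below, so no order is read between those. For Klf2 it was 87.0% in the control (85.5 to 88.4), 96.2% after 3 h (95.2 to 97.1) and 93.8% after 6 h (92.8 to 94.7). Tfcp2l1 had shares of 66.4% (64.4 to 68.4), 51.7% (49.3 to 54.1) and 42.5% (40.6 to 44.5), and its median count went from 1 UMI in the control and at 3 h to 0 after 6 h. Klf5 had 97.8%, 98.5% and 85.2%, and its median count per thinned barcode was 5 in the control, 6 after 3 h and 2 after 6 h. The same measure for Zfp42 was 99.2%, 99.9% and 93.7%, with medians of 7, 9 and 3 UMIs. The 90th percentiles after 6 h were 5 UMIs for Klf5 and 7 for Zfp42, against 9 and 11 in the control. The extreme of Klf5 was not lower, with a highest thinned count of 24 after 6 h and of 19 in the control.

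**Figure D3:**
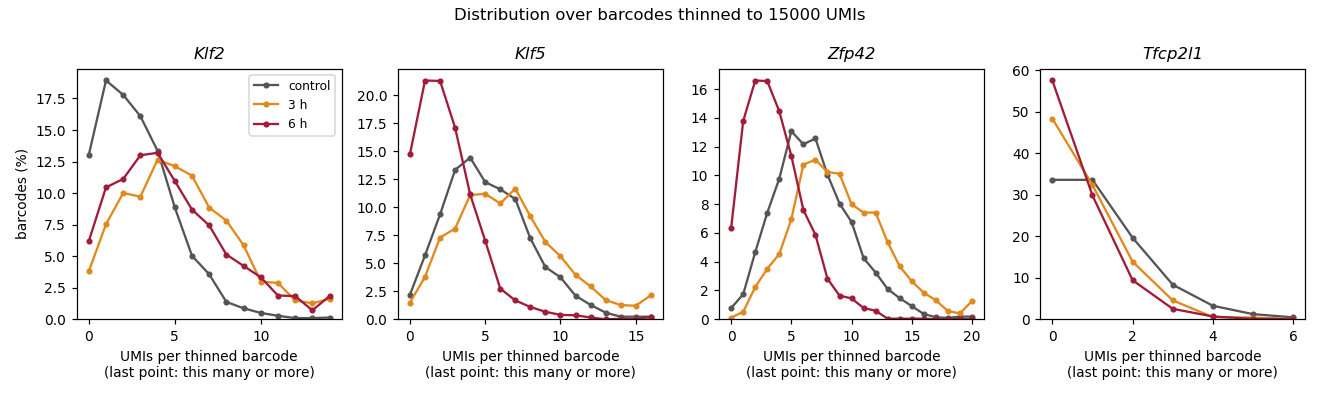
Percent of barcodes (vertical axis) with each number of UMIs (horizontal axis) after thinning to 15000 UMIs, for Klf2, Klf5, Zfp42 and Tfcp2l1. Lines are the control, 3 h and 6 h libraries, and the last point takes in all higher counts; the peaks of the 6 h lines of Klf5 and Zfp42 are to the left of those of the control, with 14.8% and 6.34% of barcodes at 0 UMIs.

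Esrrb was found in 59.1%, 72.2% and 55.7% of thinned barcodes, Tbx3 in 69.9%, 84.1% and 68.6%, Klf4 in 79.2%, 87.9% and 75.5%, and Nr0b1 in 70.2%, 75.8% and 69.5%, in the order control, 3 h and 6 h. These 4 genes had their largest share at 3 h. Nr5a2 was found in 33.2%, 25.2% and 22.2%, and Prdm14 in 141 of 2187 barcodes (6.45%, 5.45 to 7.56), 191 of 1739 and 326 of 2554 (12.8%, 11.5 to 14.1). Without thinning all shares were larger, for example 18.9%, 33.6% and 35.5% for Prdm14 and 92.1%, 87.9% and 78.9% for Tfcp2l1. The median thinned barcode held UMIs of 7 of the 10 members in the control and at 3 h, and of 6 after 6 h. At most 4 members were seen in 6.22% of control barcodes, 2.53% after 3 h and 11.7% after 6 h.

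No cell type that should lack the members was identified here, so free RNA was read from barcodes with 10 to 100 UMIs. In free RNA, Klf5 had 287, 351 and 108 CPM, and Zfp42 had 456, 526 and 219 CPM, in the order control, 3 h and 6 h, which is the order of their levels in kept barcodes. Klf2 was lower in free RNA (138, 231 and 227 CPM) than in kept barcodes in each library. Tfcp2l1 was higher in free RNA (92.3, 62.6 and 49.0 CPM) than in kept barcodes in each library. Nr5a2 had 34.2, 30.6 and 18.4 CPM in free RNA, of which the 6 h value (14.4 to 23.1) did not differ from the kept barcodes beyond counting error. Prdm14 in free RNA had 4.17, 7.26 and 4.59 CPM, from only 15, 24 and 18 UMIs, and its 6 h interval there (2.72 to 7.26) was below that in kept barcodes. If 10% of the UMIs of a thinned barcode were free RNA, that alone would give a Prdm14 UMI in 0.623%, 1.08% and 0.686% of barcodes, a Tfcp2l1 UMI in 12.9%, 8.97% and 7.08%, and a Zfp42 UMI in 49.5%, 54.6% and 28.0%. The true share of free RNA was not measured. The shares above therefore count barcodes that hold a UMI, which need not be expressing cells.

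Variation between cells was described by an excess squared CV (coefficient of variation). It is the variance of thinned UMIs less their mean, divided by the mean squared, and is 0 where counting error alone acts. The 9 members with at least 0.2 UMIs per thinned barcode were read beside genes of like mean. In the control, Klf4 had 0.363, Tbx3 0.338, Nr0b1 0.277 and Klf2 0.273, each above at least 95.7% of the genes of like mean, whose medians were 0.0486 to 0.0587. Klf5 had 0.114, above 91.2% of such genes, Tfcp2l1 had 0.176 and Zfp42 had 0.0841. Esrrb had 0.125 and Nr5a2 0.203, where the medians of their comparison genes were 0.0745 and 0.108. Without barcodes above 2 times the median UMIs, Nr5a2 had 0.0977. Klf2 was at 0 in 285 of the 2187 thinned control barcodes, and Poisson counting at its mean would leave 5.66% of them at 0. Esrrb was at 0 in 40.9%, against 39.2% by Poisson counting.

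Treated libraries differed from the control in this measure for some members. Klf5 had 0.114 in the control (0.112 to 0.121 over 5 repeated thinnings), 0.184 after 3 h (0.181 to 0.187) and 0.361 after 6 h (0.329 to 0.382), while the median of genes of like mean was 0.0344, 0.0357 and 0.0504. Its 3 ranges did not overlap. Without barcodes above 2 times the median UMIs, Klf5 had 0.121, 0.166 and 0.354, of which the 3 h value was below its range. Thinned to 30000 UMIs, it had 0.106, 0.146 and 0.316, each below its range, but the order stayed. Zfp42 had 0.0841 (0.0722 to 0.0911), 0.0792 (0.0710 to 0.0817) and 0.190 (0.168 to 0.194), so the 6 h library stood above the others. Klf4 was higher in the control, with 0.363 (0.306 to 0.375), than after 3 h, with 0.241 (0.241 to 0.269), or after 6 h, with 0.217 (0.208 to 0.237). Without barcodes above 2 times the median UMIs, its 3 h and 6 h values were 0.259 and 0.256, so no order is read between them. Nr0b1 had 0.277 (0.277 to 0.310), 0.344 (0.296 to 0.347) and 0.356 (0.356 to 0.396), so its 6 h range lay above the others. Klf2 had 0.273, 0.205 and 0.306, lowest at 3 h. Tbx3 was also lowest at 3 h, with 0.338, 0.234 and 0.366. The median of genes of like mean was 0.0486, 0.0361 and 0.0354 for Klf2, and 0.0582, 0.0506 and 0.0599 for Tbx3. These medians too were lower at 3 h than in the control, so no 3 h change relative to such genes is read. Ranges of Esrrb, Tfcp2l1 and Nr5a2 overlapped between libraries. The ranges cover the thinning only, and the difference between libraries was not tested.

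**Figure D4:**
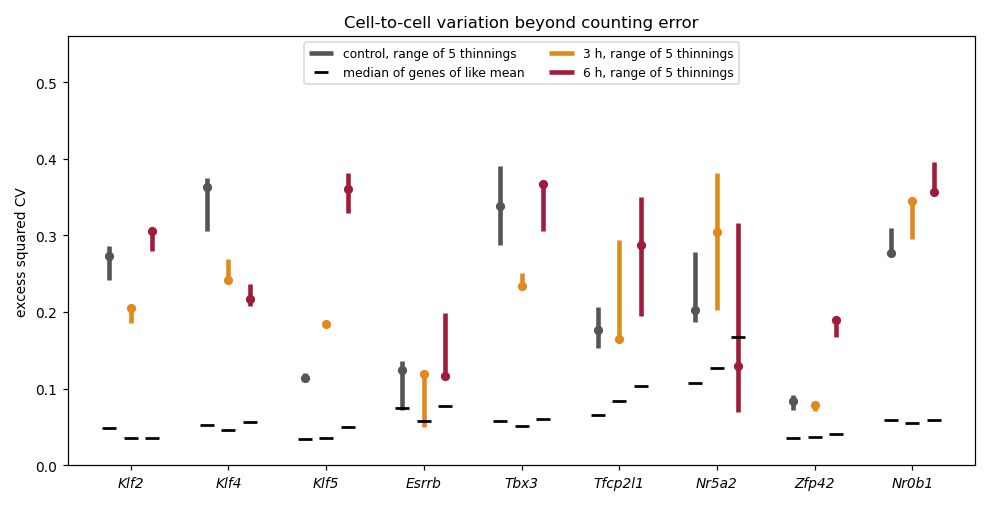
Excess squared CV (vertical axis, from 0) of the 9 members with enough UMIs, by library. Points are the values reported, vertical bars the range of 5 thinnings and black dashes the median of genes of like mean. Klf5, Zfp42 and Nr0b1 are highest at 6 h. So are the points of Klf2, Tbx3 and Tfcp2l1, whose 6 h ranges overlap those of the control. Klf4 is highest in the control, and Esrrb lies near the dashes.

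Members were only weakly correlated across barcodes of 1 library. Spearman's rho between thinned UMIs had a median of 0.035 over the 45 pairs in the control, 0.041 after 3 h and 0.047 after 6 h. Of these pairs, 39, 39 and 42 were above 0. The share above 0 among pairs of other genes was not counted, so these numbers are not read as particular to the members. Thinned to 30000 UMIs, the medians were 0.064, 0.079 and 0.078, so the values depend on depth and no order of the libraries is read from them. Points are barcodes of 1 library at equal depth (2187, 1739 and 2554), and such values in sparse counts are given as a description. Klf4 and Tbx3 had 0.16 in the control, and Klf2 and Zfp42 had 0.26 after 6 h. In the 3 h library the leading pair changed with the thinning. For Klf2 and Zfp42 the value was 0.095 both in the control and at 3 h, and over 5 thinnings the 6 h value ranged from 0.19 to 0.26. Klf4 and Nr0b1 had -0.092 and -0.10 in the control and 3 h libraries, and between -0.014 and 0.033 over the 5 thinnings of the 6 h library, where no sign is read.

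In the control, genes were ranked by rho with the summed UMIs of the members, over 3797 genes with at least 0.5 UMIs per thinned barcode. Only the first of the 5 thinnings was used, so no order is read between close values. The sum was not weighted, and in kept control barcodes Zfp42 made up 30.0% of it and Klf2, Klf4 and Klf5 together 45.3%. The 5 highest that were not members were Malat1 (0.27), Nanog (0.25), Top2a (0.24), Jarid2 (0.23) and Pabpc1 (0.23). In the 6 h library Nanog had 0.24 and Jarid2 0.13, whereas Malat1 had -0.10 and Top2a -0.047. Nanog is a homeodomain factor of the core network, Malat1 a nuclear RNA and Top2a a topoisomerase gene of dividing cells. Among the lowest were the ribosomal protein genes Rpl35 (-0.25), Rps18 (-0.23), Rps3 (-0.23) and Rpl27 (-0.22), with values from -0.12 to -0.049 after 6 h. The 5th and 95th percentiles over all these genes were -0.086 and 0.11 in the control. Against the sum of the other members, Klf4 had 0.20, Zfp42 0.19 and Tbx3 0.18 in the control, and Nr0b1 -0.013.

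Barcodes low and high in Nanog were then compared within each library, with cuts at the quartiles of thinned Nanog UMIs (at most 1 and at least 3, or at least 4 in the 3 h library). Ties made the low side larger, with 1051 low and 647 high control barcodes of 42539 and 43755 median UMIs. Tbx3 had 87.0 and 116 CPM, a log2 ratio of 0.41 (0.35 to 0.48), and Klf4 had 119 and 156 CPM, a ratio of 0.39 (0.34 to 0.45). For comparison, the median ratio of all genes tested was 0.030, with 5th and 95th percentiles of -0.12 and 0.21. Klf5, Tfcp2l1 and Zfp42, with 0.13, 0.13 and 0.21, lay within these percentiles. Klf2, Esrrb and Nr5a2, with 0.23, 0.33 and 0.29, lay above the 95th percentile. So did Prdm14, with 0.43 but a wide interval (0.13 to 0.73). Nr0b1 differed by -0.0042 (-0.068 to 0.059), within counting error. At 6 h, Klf2 had 292 and 383 CPM, a ratio of 0.39 (0.36 to 0.42), and Zfp42 had a ratio of 0.37. Nr5a2, Tbx3 and Prdm14 had 0.45, 0.38 and 0.36, while Klf4 had 0.13 and Klf5 -0.075 (-0.12 to -0.033). The 5th and 95th percentiles of all genes at 6 h were -0.13 and 0.24. Klf2, Zfp42, Nr5a2, Tbx3 and Prdm14 lay above the 95th, and the other members, Klf4 and Klf5 among them, lay within both. These differences are between cells of 1 library, which are not replicates.

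**Figure D5:**
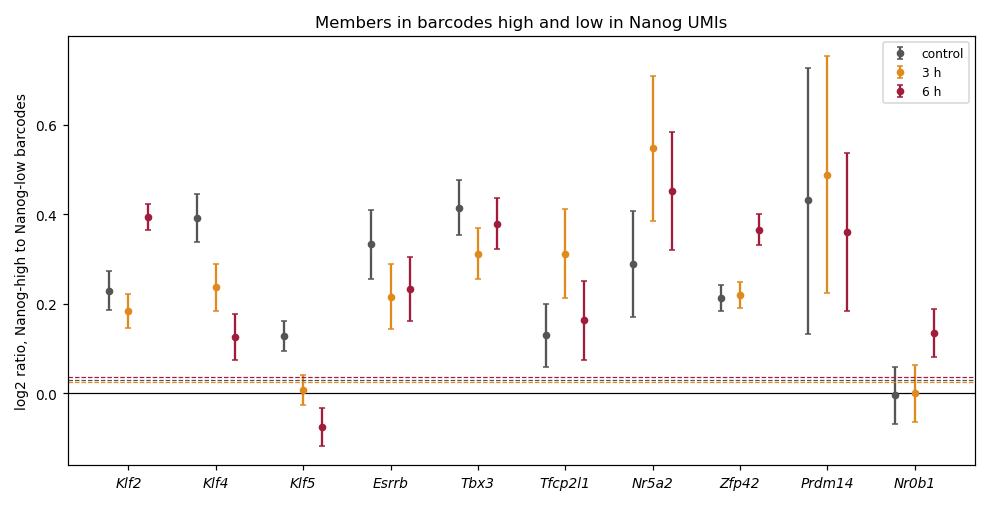
Log2 ratio of each member between Nanog-high and Nanog-low barcodes (vertical axis) in the control, 3 h and 6 h libraries, with 95% exact conditional binomial intervals that cover counting error. Dashed lines are the medians of all genes tested. All members except Klf5 and Nr0b1 lie above them in each library. Nr0b1 lies near 0 in the control and at 3 h, and Klf5 is below 0 after 6 h.

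Other genes around the members were read from lists. Of 15 further genes of the naive and core network, 14 passed the floor. Their median log2 ratio to control was 0.37 after 3 h, against 0.11 for all genes, and -0.015 after 6 h, against 0.17. By 1.5-fold, 4 were higher and 1 lower at 3 h, against 13.9% and 2.13% of all genes. At 6 h, 2 were higher and 3 lower, against 22.1% and 7.79%. Higher were Il6st, the shared receptor subunit of LIF signalling, from 14.1 CPM in the control to 26.3 after 6 h, and Tcf7l1, a repressor of naive genes, from 30.8 to 55.3 CPM. Gbx2, a STAT3 target, had 95.3 CPM in the control, 33.8 after 3 h and 10.4 after 6 h, a log2 ratio of -3.20 after 6 h. Tet2 and Fgf4 had log2 ratios of -1.38 and -0.67 after 6 h. Of 12 formative or primed genes only 3 passed the floor. Etv5, an ETS factor downstream of FGF signalling, and the DNA methyltransferase gene Dnmt3b were at least 1.5-fold lower at 6 h, with log2 ratios of -1.23 and -0.61. Dnmt3a, the remaining one, had -0.45, and with TMM factors all 3 were at least 1.5-fold lower. Of all genes tested, 7.79% were that much lower at 6 h by CPM, and 913 of 7608 with TMM factors.

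Relatives of the members within their gene families were read in the same way. Among 32 such genes 12 passed the floor, with a median log2 ratio of 0.20 after 6 h against 0.17 for all genes. At 6 h, 5 of them were at least 1.5-fold higher than in the control, against 22.1% of all genes, and 1 was at least 1.5-fold lower, against 7.79%. Klf10, a TGF-beta-inducible family member, had 23.9 CPM in the control, 143 after 3 h and 184 after 6 h, a log2 ratio of 2.95 after 6 h. Klf6, Klf7 and Klf11 were higher too, with 3 h log2 ratios of 1.91, 1.37 and 1.55 and 6 h values of 1.79, 1.27 and 1.88. Klf3, a repressor, had 96.4, 62.5 and 48.5 CPM, with -0.99 after 6 h. Tfcp2, the paralog of Tfcp2l1, had 6.48, 10.8 and 13.5 CPM, a log2 ratio of 1.06 after 6 h, where Tfcp2l1 had -1.06.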

How the data were processed

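Single-cell 3' libraries (10x Genomics, v3 chemistry) of 3 groups of cells were used, 1 per group. The authors deposited raw UMI counts per gene and barcode, made with Cell Ranger 4.0.0 on mm10 per the submitters' processing notes. The annotation is not given in the sources used here, and the matrices list 6794880 barcodes each, before cell calling. Kept barcodes hold 87.3%, 92.8% and 92.9% of the UMIs of the control, 3 h and 6 h libraries. Gene positions are from GENCODE M21 on GRCm38.

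UMIs were summed over kept barcodes and scaled to CPM. Log2 ratios used a prior of 0.5 counts. Thinning drew 15000 UMIs per barcode without replacement. No doublets were removed, and barcodes above 2 times the median UMIs were left out in an alternative. TMM factors came from edgeR 4.0.16 and size factors from DESeq2 1.42.0 in R 4.3.3. Other steps used Python 3.11.15, numpy 2.4.6 and scipy 1.17.1 and were tested on simulated data. How UMIs of near-identical or overlapping genes were assigned is not stated.

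All members are named. Listed genes are named if at least 10 CPM on average and at least 1.5-fold from control at 6 h, and Dnmt3a, Dppa3, Otx2, Pou3f1, Sox3, Zic2 and Sall2 were added after their values were seen. The rule also takes the 5 genes of highest and the 5 of lowest rho with the members, of which 1 is not reported here. The members and lists were chosen with earlier results of these data known.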

Additional observations from a re-analysis of the deposited data

Results flagged for a closer look

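Above the control at 3 h and below it at 6 h were 5 members, beyond counting error each time by CPM. How many of all genes tested changed sides in this way was not counted, so the number is not read as particular to the members. With 1 library per time point, these differences were not tested, and both comparisons share the control library. Klf5 had log2 ratios of 0.32 and -1.11, a difference of -1.43 between 6 h and 3 h. Zfp42 had 0.38 and -0.93, a difference of -1.30. For Tbx3 the values were 0.65 and -0.12, a difference of -0.77, for Klf4 0.47 and -0.27, a difference of -0.74, and for Esrrb 0.57 and -0.15, a difference of -0.72. The median of the 9 members went from 0.38 to -0.27, a difference of -0.65. By mean UMIs per kept barcode, the 6 h values of Tbx3 and Esrrb were -0.0078 and -0.041, close to the control.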

How the results depend on the processing

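With 1 library per group, no library could be left out. No paired analysis was possible because each group has 1 sample. Of 300 values of single members under 10 alternatives, 298 kept their sign. The exception was Nr0b1 at 6 h against control, which was -0.095 with TMM factors and -0.10 with DESeq2 size factors. The median ratio of the members (0.38 at 3 h against control, -0.27 at 6 h against control and -0.72 at 6 h against 3 h) became 0.27, -0.43 and -0.76 with TMM factors, 0.27, -0.43 and -0.77 with DESeq2 size factors, and 0.65, -0.16 and -0.88 by mean UMIs per kept barcode. It was 0.40 at 3 h and -0.24 at 6 h after subtraction of 10% free RNA, 0.40 and -0.21 without mitochondrial limits, 0.43, -0.21 and -0.56 (6 h against 3 h) without a floor, and 0.43 and -0.21 with a floor of 50 CPM. Members at least 1.5-fold higher at 3 h numbered 1 with TMM factors, 1 with DESeq2 size factors and 7 by mean UMIs per kept barcode, where 0 were lower. The number was 3 after free RNA subtraction, without mitochondrial limits or without barcodes above 2 times the median UMIs, Esrrb being the one added. Without a floor, which adds Prdm14, 3 were higher at 3 h and 2 at 6 h. Under alternatives other than TMM factors, the share of all genes past 1.5-fold was not counted. Shares of barcodes moved beyond their intervals in 29 of 30 cases without thinning, and 79 of 135 correlations moved when barcodes were thinned to 30000 UMIs. Depth limits Prdm14 most, and its excess squared CV was not read.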

Other observations

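Some listed genes whose mean was below the floor of 10 CPM had few UMIs but large ratios, and they are named here after their values were seen. Otx2, a driver of the formative state, had 2.15 CPM in the control (1.89 to 2.44), 8.05 after 3 h and 5.99 after 6 h. Pou3f1, another formative factor, had 15.5 CPM, 5.17 CPM and 5.07 CPM. Dppa3, a germline and naive marker, had 3.36 CPM, 4.66 CPM and 8.65 CPM. Sox3, a neural and formative gene, had 1.97 CPM, 3.66 CPM and 9.16 CPM. Zic2, a zinc finger factor of the primed state, had 0.592 CPM, 3.39 CPM and 2.68 CPM, and Sall2, another zinc finger gene, had 2.48 CPM, 4.20 CPM and 7.75 CPM. Otx2 and Pou3f1 therefore lay on opposite sides of the control at both times.

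In the 3' untranslated region of the transcript chosen for each member, the AU-rich nonamer TTATTTATT was found in 1 of 10, Klf5, and in 6.85% of 7462 genes tested that have such a region. The Klf5 site lies on GRCm38 at chr14:99314659-99314687, plus strand, with the nonamer in capitals: tgttttatcaTTATTTATTttgtggtaat. No binding or decay at this site was measured.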
